A study of Canis lupus familiaris with 6 samples.

Results

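DNA replication and mitosis genes were examined as one module of 59 genes, 29 of replication and 30 of mitosis, in the canine hemangiosarcoma line HU-HSA-2, which derives from a malignant tumour of blood vessel lining. Members were the rows of the deposited expression table whose symbol is on a fixed list. Of the 59 symbols, 55 matched a row among 20500 rows. MCM10, POLD1, E2F1 and BIRC5 matched none and are not analysed here. GINS1, AURKB and UBE2C each had 2 rows, and for each the row with the higher mean is used. All 55 passed the filter of at least 1 TPM on average (TPM is a level scaled for transcript length and library total), leaving 26 replication and 29 mitosis genes. SAPCD2 was already known to differ in these data when the list was drawn up.

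The study compared 3 libraries of cells exposed to the lactate dehydrogenase inhibitor (R)-GNE-140 (GNE140 below) with 3 control libraries. Per the labels' protocols the exposure to compound or DMSO lasted 72 hours, in serum-containing DMEM, and the RNA was polyA selected. The labels give no dose. All 6 libraries come from 1 cell line, and no label ties a replicate number to its own culture, so a p-value reflects library-to-library spread alone, which could be technical.

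Proliferating cells copy their DNA in S phase and divide it in mitosis, and the genes for each step are transcribed in waves. E2F factors drive the replication wave at the G1/S boundary, and FOXM1 and the MYBL2-containing MuvB complex drive the later mitotic wave. In a growing culture the level of these transcripts therefore follows both the share of cycling cells and the activity of the genes. In bulk RNA, fewer cells in a phase and less RNA per cell cannot be told apart.

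Libraries had 13379 to 13861 genes above 0, and 14.6% to 17.0% of the TPM fell to the top 20 genes. TPM keeps no read depth, so depth is unknown. Of 11 endothelial markers, 10 averaged 1 TPM or more, led by CLDN5 at 691 TPM and PECAM1 at 332 TPM, while VWF, a defining endothelial gene, was near 0 at 0.085 TPM. Summed over the 11 markers the level was 1293 to 1376 TPM in GNE140 libraries and 1436 to 1659 TPM in control libraries. That sum leans on CLDN5, which averaged 625 TPM in GNE140 libraries and 758 TPM in control libraries. Of the 10 markers, 8 had a log2 difference (GNE140 minus control) below 0. FLT1, at 4.41 TPM in GNE140 libraries and 2.80 TPM in control libraries, and ERG, at 21.7 and 20.1 TPM, were above 0. For 8 fibroblast and pericyte markers the sum was 7.80 to 10.7 TPM in GNE140 libraries and 5.60 to 7.02 TPM in control libraries. For 6 leukocyte markers it was 7.70 to 9.29 TPM in GNE140 libraries and 7.10 to 7.73 TPM in control libraries. The 3 epithelial markers with a row summed to at most 0.26 TPM in GNE140 libraries and 0.03 TPM in control libraries. Averaging 1 TPM or more were COL1A1, PDGFRA and ACTA2 of the fibroblast and pericyte list, and CD14 and CD68 of the leukocyte list. COL1A1, PDGFRA and ACTA2 averaged 2.27, 3.35 and 2.36 TPM in GNE140 libraries, against 1.29, 2.44 and 1.77 TPM in control libraries. CD14 averaged 5.92 TPM in GNE140 and 4.50 TPM in control libraries, and CD68 1.67 and 1.94 TPM. Other members, COL3A1, CD3E and CDH1, were listed at 0 in all 6 libraries, and KRT8, KRT5 and KRT14 matched no row. The part of these marker levels in the results was not tested.

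Of the 55 genes, 1 passed the test and 54 did not. The gene that passed was SAPCD2, lower in GNE140 libraries by 0.63 on the log2 scale (adjusted p = 0.0361 by limma on log2(TPM + 1), Benjamini-Hochberg over 10874 genes). SAPCD2 was listed with its difference already known, so its call is described here and is not independent. The call held in 1 of 6 fits with a library left out. In replication, 0 of 26 genes passed in either direction, and at an unadjusted p below 0.05 there were 2 lower and 0 higher. In mitosis, 1 of 29 (SAPCD2) passed lower and 0 higher, with 2 lower and 0 higher at the unadjusted level. Over all 10874 genes tested, 3.03% passed in either direction, 1.31% higher and 1.72% lower, and 17.9% had an unadjusted p below 0.05, 8.75% higher and 9.16% lower. Of the 55 genes, 4 (PCNA, RFC4, CCNA2 and SAPCD2) had such a p, a share below that background. The 4 include SAPCD2, whose difference was known beforehand.

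**Figure D1:**
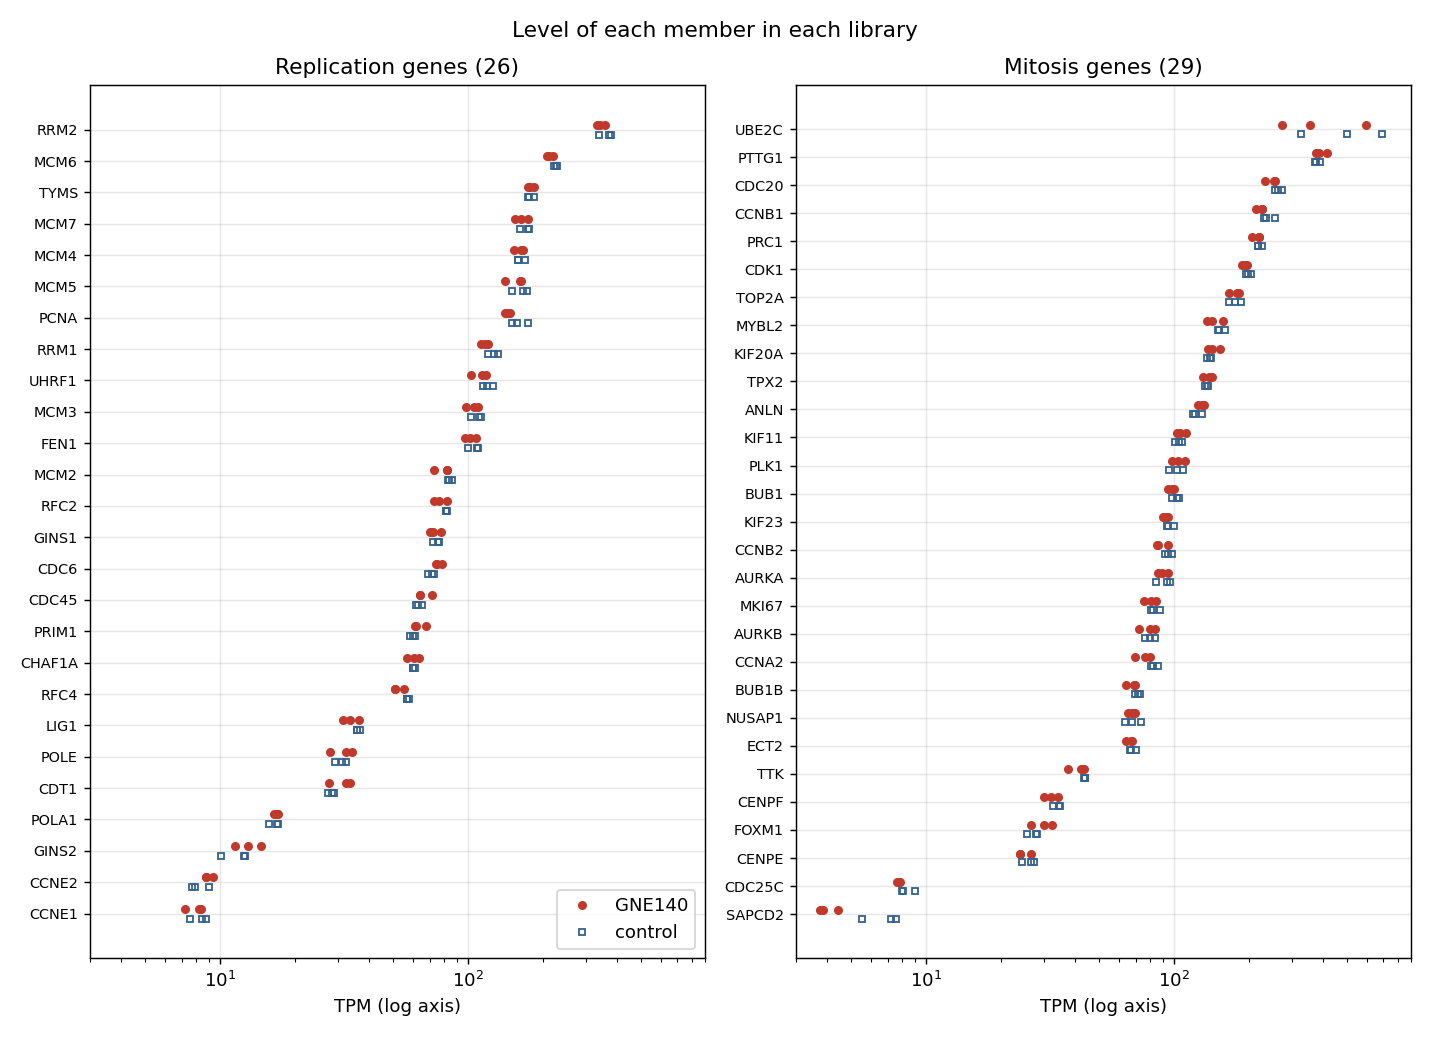
TPM of each of 26 replication and 29 mitosis genes on a log axis, with 3 GNE140 libraries (filled red circles) drawn above 3 control libraries (open blue squares) for each gene, ordered by mean level. Most genes show both groups at nearly the same place, SAPCD2 at the foot of the mitosis panel has separate groups, and UBE2C at its head is spread widely in both.

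The sign of the difference was below 0 in 17 of 26 replication genes and in 22 of 29 mitosis genes, against 48.9% of all genes tested. Of genes averaging 5 TPM or more, as all members did, 51.5% were below 0. Under quantile normalization the member counts were 14 of 26 and 19 of 29. With 1 library left out, 14 of 55 members changed sign in at least 1 of 6 fits, each with a difference of at most 0.047 in either direction when all 6 libraries were fitted. The median log2 difference was -0.050 over the replication genes and -0.054 over the mitosis genes. It was 0.0040 over all genes and -0.0042 over those averaging 5 TPM or more. Groups did not overlap in 12 of the 55 genes, 10 lower and 2 higher in GNE140 libraries, where 23.1% of all genes had non-overlapping groups, 11.8% lower and 11.2% higher. The genes without overlap were MCM2, MCM6, PCNA, RFC4, RRM1, CCNA2, CCNB1, CDC25C, TTK and SAPCD2 on the lower side, and CDC6 and PRIM1 on the higher side.

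The replicative helicase is a ring of MCM2 to MCM7, loaded onto origins before S phase. All 6 subunits had a difference below 0, between -0.092 for MCM2 and -0.013 for MCM4, which turned to 0.023 under quantile normalization, and 0 passed. MCM4 also turned without GNE140 replicate 2 (0.025) or control replicate 3 (0.021). MCM6 stood at 207, 212 and 220.1 TPM in GNE140 libraries, against 226, 222 and 229 TPM in control libraries. The groups did not overlap, and the 95% interval around a log2 difference of -0.083 was -0.18 to 0.015, the narrowest interval among replication genes. MCM2 was at 82.4, 72.7 and 82.0 TPM in GNE140 libraries, against 86.0, 83.5 and 83.0 TPM in control libraries. GNE140 replicate 2 lay below the other libraries, and the interval was -0.23 to 0.042 around -0.092. The others had mean levels in GNE140 libraries of 104 TPM for MCM3, 161 TPM for MCM4, 156 TPM for MCM5 and 164 TPM for MCM7. In control libraries the means were 108 TPM for MCM3, 163 TPM for MCM4, 163 TPM for MCM5 and 171 TPM for MCM7. MCM6 was the highest and MCM2 the lowest subunit in each of the 6 libraries, at a ratio of 2.52 to 2.92, although the protein ring holds them in equal number.

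Factors that load the helicase and switch it on had the other sign. CDC6 and CDT1 bring the MCM ring to origins, while CDC45 and the GINS proteins join it to form the active helicase. Of 5 genes with a row, 4 had a difference above 0 and GINS1 was below 0 (above 0 under quantile normalization and without GNE140 replicate 2), and 0 passed. GINS2 had 11.5, 13 and 14.6 TPM in GNE140 libraries, against 12.5, 10.1 and 12.6 TPM in control libraries. The groups overlapped, and the log2 difference of 0.14 had the widest interval among replication genes, -0.11 to 0.39. CDC6 stood at 75.2, 78.7 and 74.3 TPM in GNE140 libraries, against 71.7, 69.0 and 72.7 TPM in control libraries, with no overlap and an interval of -0.018 to 0.21 around 0.095. CDT1 was at 32.2, 27.4 and 33.6 TPM in GNE140 libraries, against 28.4, 28.7 and 27.3 TPM in control libraries, so control replicates 1 and 2 lay within the GNE140 range, and the difference was 0.13. GINS1 had 72.4, 70.5 and 77.9 TPM in GNE140 libraries, against 76.0, 75.7 and 72.0 TPM in control libraries, and the interval was -0.14 to 0.11. CDC45 had a log2 difference of 0.074. The second GINS1 row was at 0.33 TPM in 1 GNE140 library and listed at 0 in the other 5 libraries. Whether reads were shared between the 2 rows is not known.

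Genes of the synthesis machinery had differences on both sides of 0. PCNA is the sliding clamp that holds polymerases on DNA and RFC4 is a subunit of the loader that places it there. PCNA stood at 142, 144 and 148 TPM in GNE140 libraries, against 151, 158 and 174 TPM in control libraries. All 3 GNE140 values lay below all 3 control values, and control replicate 3 was the highest of the 6. The log2 difference was -0.15 (interval -0.28 to -0.022), and PCNA did not pass (limma adjusted p = 0.202). RFC4 was at 50.9, 50.6 and 55.1 TPM in GNE140 libraries, against 58.0, 56.6 and 56.8 TPM in control libraries, again without overlap, at a log2 difference of -0.13 (interval -0.25 to -0.0063, limma adjusted p = 0.251). PRIM1 is the catalytic primase subunit. PRIM1 had 61.4, 61.6 and 67.5 TPM in GNE140 libraries, against 58.6, 59.9 and 61.1 TPM in control libraries, and the groups were apart in the other direction at 0.082. RFC2, a further clamp loader subunit, was at -0.081, and the ligase LIG1, which seals Okazaki fragments, at -0.10. FEN1, the flap nuclease, was at -0.052, and the polymerase subunits POLA1 and POLE were at 0.026 and 0.024.

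Ribonucleotide reductase, of which RRM1 is the large and RRM2 the S-phase subunit, supplies deoxynucleotides. RRM1 stood at 120.0, 117 and 113 TPM in GNE140 libraries, against 121, 127 and 132 TPM in control libraries. The groups did not overlap, though GNE140 replicate 1 and control replicate 1 nearly met, and the interval was -0.23 to 0.00087 around -0.11. RRM2 was at 357, 332 and 342 TPM in GNE140 libraries, against 372, 338 and 376 TPM in control libraries, which overlapped, at -0.073. TYMS, thymidylate synthase, averaged 179 TPM in GNE140 libraries and 178 TPM in control libraries, with the narrowest outer bound of any replication gene, 1.08-fold.

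The E cyclins, which activate CDK2 at the G1/S boundary, were among the lowest members. CCNE2 had 8.81, 9.39 and 8.79 TPM in GNE140 libraries, against 9.02, 7.94 and 7.68 TPM in control libraries, with overlap and a log2 difference of 0.12. CCNE1 stood at 8.39, 7.25 and 8.24 TPM in GNE140 libraries, against 8.77, 8.42 and 7.58 TPM in control libraries, at -0.047. Chromatin is rebuilt behind the fork by CHAF1A, the large subunit of the histone chaperone CAF-1, and DNA methylation is copied with the help of UHRF1. UHRF1 was at 118, 102 and 114 TPM in GNE140 libraries, against 126, 114 and 119 TPM in control libraries, which overlapped, at -0.10 with an interval of -0.25 to 0.042. CHAF1A was at -0.0080.

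The transcription factors of the mitotic wave had opposite signs, and neither passed. FOXM1 had 32.1, 26.6 and 29.9 TPM in GNE140 libraries, against 28.0, 25.5 and 27.6 TPM in control libraries, with overlap and a log2 difference of 0.12 (interval -0.059 to 0.30). MYBL2 stood at 158, 136 and 142 TPM in GNE140 libraries, against 152, 151 and 160.4 TPM in control libraries, also with overlap, at -0.091 (interval -0.23 to 0.047).

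Cyclins A2, B1 and B2 and their partner CDK1, with the phosphatase CDC25C that activates it, all had differences below 0, also under each of 15 alternatives. CCNA2 was at 76.2, 69.8 and 79.7 TPM in GNE140 libraries, against 82.1, 80.6 and 85.9 TPM in control libraries. The groups did not overlap, GNE140 replicate 2 was the lowest of the 6, and the log2 difference was -0.14 (interval -0.27 to -0.0032, limma adjusted p = 0.266). CCNB1 had 213, 227 and 226 TPM in GNE140 libraries, against 235, 232 and 254 TPM in control libraries, without overlap, at -0.11 (interval -0.23 to 0.0029). CDK1 stood at 188, 197 and 193 TPM in GNE140 libraries, against 199, 195 and 205 TPM in control libraries, with overlap. Its interval of -0.15 to 0.048 around -0.051 was the narrowest among mitosis genes. CCNB2 was at -0.097 and CDC25C, one of the lowest members, at -0.095. In each library CCNB1 and CCNB2 together stood 17.4 to 22.9 times above CCNE1 and CCNE2 together in TPM.

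Mitotic kinases and the spindle checkpoint genes had log2 differences between -0.093 and 0.020, and 0 of 6 passed. PLK1, a kinase that drives mitotic entry and exit, was at the upper end. PLK1 was at 111, 97.9 and 104 TPM in GNE140 libraries, against 103, 95.6 and 109 TPM in control libraries. The groups overlapped, at a log2 difference of 0.020 (interval -0.13 to 0.17). TTK encodes the checkpoint kinase MPS1. TTK had 37.5, 43.2 and 42.0 TPM in GNE140 libraries, against 43.7, 43.3 and 43.9 TPM in control libraries, where GNE140 replicate 1 stood apart below the other 5 libraries and the difference was -0.093. AURKA and AURKB, the Aurora kinases, were at -0.014 and -0.028, and the checkpoint kinase BUB1 and its relative BUB1B were at -0.064 and -0.075. The second AURKB row was at 0.34 to 0.65 TPM in GNE140 libraries and 0.69 to 1.12 TPM in control libraries.

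Exit from mitosis runs through the anaphase-promoting complex, with CDC20 as activator, UBE2C as its ubiquitin-conjugating enzyme and securin, PTTG1, as a substrate. UBE2C stood at 597, 273 and 355 TPM in GNE140 libraries, against 499.8, 689 and 327 TPM in control libraries. Values in both groups differed between libraries more than between the groups, and the highest and lowest GNE140 values belong to replicates 1 and 2. The log2 difference of -0.32 had an interval of -0.99 to 0.36, the widest of all members. Single libraries set its size, since it was -0.63 without GNE140 replicate 1 and -0.60 without control replicate 3, but -0.068 without GNE140 replicate 2 and -0.062 without control replicate 2, and it passed in none of the 6 such fits (limma adjusted p = 0.279 to 0.951). The within-group SD of UBE2C was 0.56 on the log2 scale, a spread reached by 0.544% of the 9002 genes averaging 5 TPM or more, and the next member was SAPCD2 at 0.17. A second UBE2C row was listed at 0 in all 6 libraries, and how reads were shared between the rows is not known. CDC20 averaged 247 TPM in GNE140 libraries and 263 TPM in control libraries, at -0.092, and PTTG1 averaged 391 TPM in GNE140 libraries and 378 TPM in control libraries, at 0.050.

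Among kinetochore and spindle genes, SAPCD2, which takes part in orienting the mitotic spindle and in cell polarity, was lower in GNE140 libraries. SAPCD2 was at 3.72, 4.42 and 3.85 TPM in GNE140 libraries, against 7.19, 5.51 and 7.59 TPM in control libraries. Every GNE140 value lay below every control value, with control replicate 2 the closest. The mean was 3.997 ± 0.372 TPM in GNE140 libraries and 6.76 ± 1.104 TPM in control libraries (SD, n = 3 each), and no other member had a lower mean over the 6 libraries. The log2 difference of -0.63 had an SE of 0.13 and an interval of -0.92 to -0.34 (limma adjusted p = 0.0361). Permuting the 6 values exactly (2-sided) gave p = 0.1, the smallest that 20 arrangements allow. The call was lost without GNE140 replicate 1, 2 or 3 (limma adjusted p = 0.1001, 0.0675 and 0.115) and without control replicate 1 or 3 (0.123 and 0.102), and held without control replicate 2 (0.0319). It was also lost without the filter on low values (0.0921), without the variance trend (0.0563) and with the replicate number as a block (0.0911).

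The rest of the spindle group did not pass. TPX2 helps to build spindle microtubules and activates AURKA. TPX2 had 143, 131 and 138 TPM in GNE140 libraries, against 136, 134 and 138 TPM in control libraries, with overlap and an interval of -0.093 to 0.12. The kinetochore proteins CENPE and CENPF were at -0.069 and -0.083, the spindle motor KIF11 at 0.027 and the microtubule-binding NUSAP1 at -0.013.

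Midzone and cytokinesis genes showed small differences of both signs. PRC1 bundles midzone microtubules. PRC1 stood at 221, 207 and 219.6 TPM in GNE140 libraries, against 219, 219 and 227 TPM in control libraries, with an interval of -0.14 to 0.065 around -0.038. ANLN is a scaffold of the contractile ring. ANLN was at 130.1, 126 and 132 TPM in GNE140 libraries, against 122, 119.9 and 129 TPM in control libraries, with overlap at 0.062 and an interval of -0.048 to 0.17. The midzone motors KIF20A and KIF23 were at 0.050 and -0.061, and ECT2, which activates RhoA for cleavage, was at -0.040.

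The proliferation markers MKI67 and TOP2A were close to level. MKI67 encodes Ki-67, which coats mitotic chromosomes. MKI67 had 84.4, 75.9 and 81.1 TPM in GNE140 libraries, against 82.1, 80.5 and 88.2 TPM in control libraries. The groups overlapped, at a log2 difference of -0.054 (interval -0.19 to 0.079). TOP2A is the topoisomerase that untangles sister chromatids. TOP2A stood at 180.1, 166 and 183 TPM in GNE140 libraries, against 176, 167 and 187 TPM in control libraries. The mean was 176 TPM in GNE140 libraries and 177 TPM in control libraries, and the log2 difference of -0.0014 had an interval of -0.13 to 0.13.

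**Figure D2:**
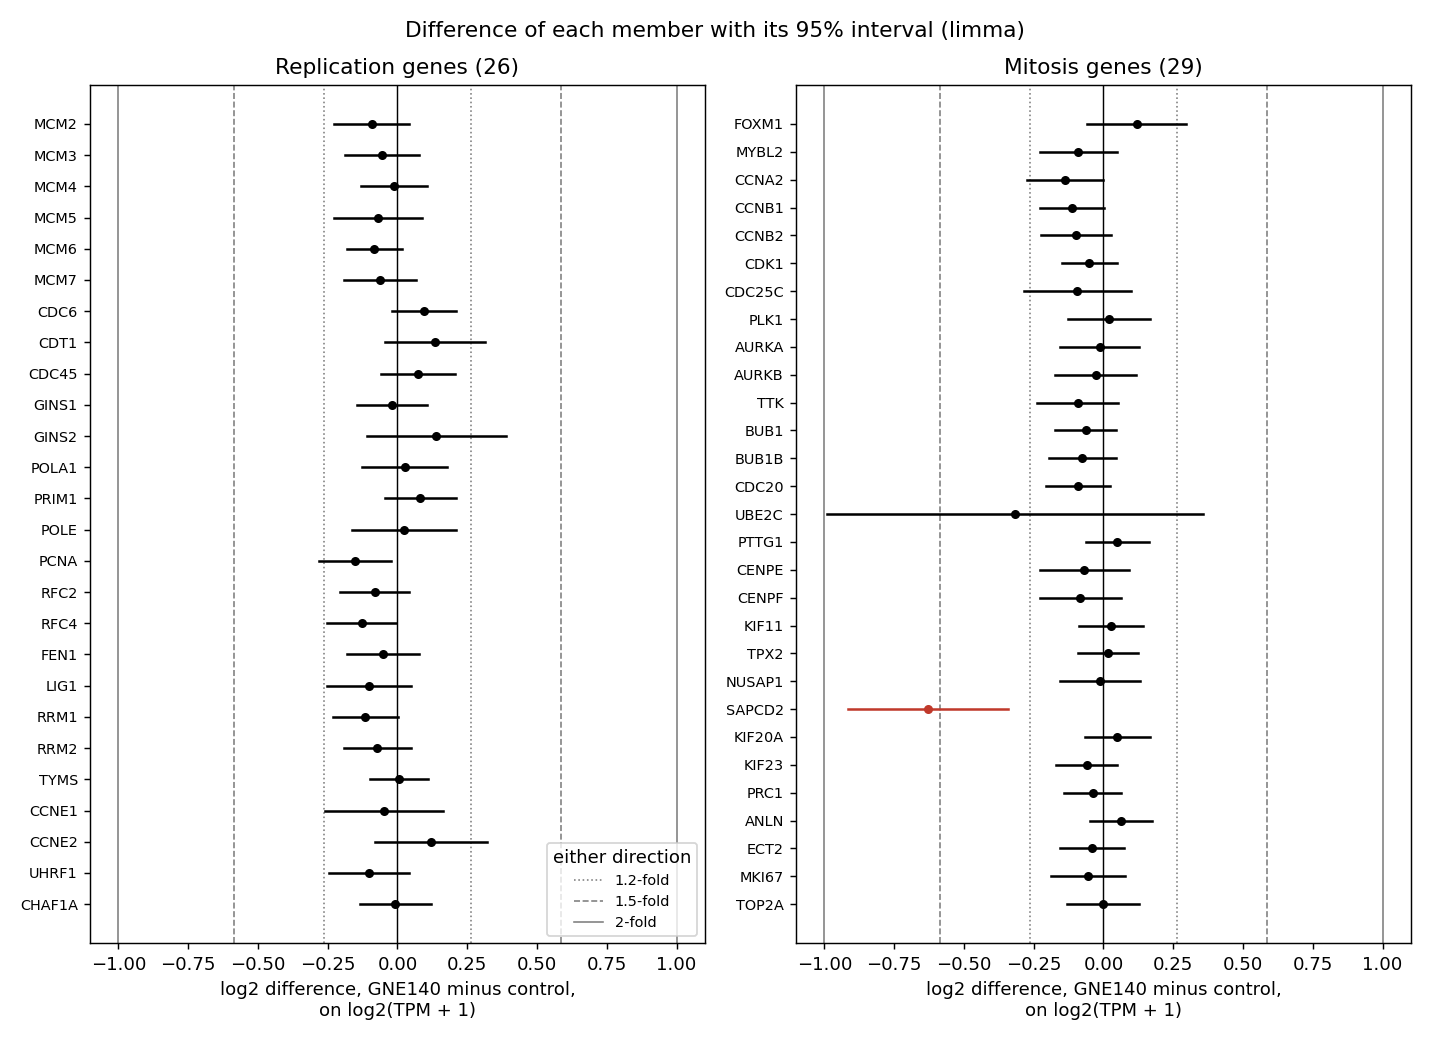
Log2 difference, GNE140 minus control on log2(TPM + 1), of each replication and mitosis gene (points) with its 95% limma interval (bars), and lines at 1.2-, 1.5- and 2-fold. The intervals of SAPCD2 (red, the only gene past the adjusted threshold), PCNA, RFC4 and CCNA2 lie wholly below 0. That of UBE2C almost reaches 2-fold, and the 53 genes other than SAPCD2 and UBE2C stay inside 1.5-fold.

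The fold change that the replicate spread excludes was read from the outer end of each gene's 95% interval. An interval covers 1 gene at a time, on the log2(TPM + 1) scale, which compresses the fold of genes at low TPM. Over the 26 replication genes the median outer end was 1.16-fold, and the farthest was 1.31-fold, for GINS2. All 26 intervals lay within 1.5-fold and 22 within 1.2-fold. Among these genes the lowest lower end was -0.28 on the log2 scale, for PCNA, and the highest upper end was 0.39, for GINS2.

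Over the 29 mitosis genes the median outer end was 1.13-fold. UBE2C reached 1.99-fold and SAPCD2 1.89-fold, and the other 27 stayed within 1.23-fold, which is the value of FOXM1. Within 1.2-fold lay 24 of 29 intervals, and within 1.5-fold 27 of 29. The number within 2-fold was 29 of 29, and it was 28 under most alternatives, where UBE2C or SAPCD2 passed 2-fold. Taking both classes, 46 of 55 (83.6%) lay within 1.2-fold, where all genes tested gave 43.7% and those averaging 5 TPM or more, as all members did, gave 52.6%. Within 1.5-fold lay 53 of 55 (96.4%), where all genes gave 89.8% and those averaging 5 TPM or more gave 95.6%. Within 2-fold the shares of all genes were 98% and 99.1%. The median within-group SD was 0.070 on the log2 scale over the members and 0.086 over all genes averaging 5 TPM or more. The members are not matched in level to those genes, since their median level was 90.9 TPM. Their median outer end was 1.15-fold, against 1.19-fold over genes averaging 5 TPM or more. It was also 1.15-fold over 41 other replication genes and over 54 other mitosis genes, so narrow intervals were not particular to the module.

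A test across all genes needs a larger difference than an interval that misses 0. At its own standard error a member had to differ by 1.19-fold in the median case to pass the adjusted threshold, by 1.14-fold for MCM6, 1.48-fold for SAPCD2 and 2.51-fold for UBE2C. Measured differences smaller than these would not have passed at those standard errors.

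**Figure D3:**
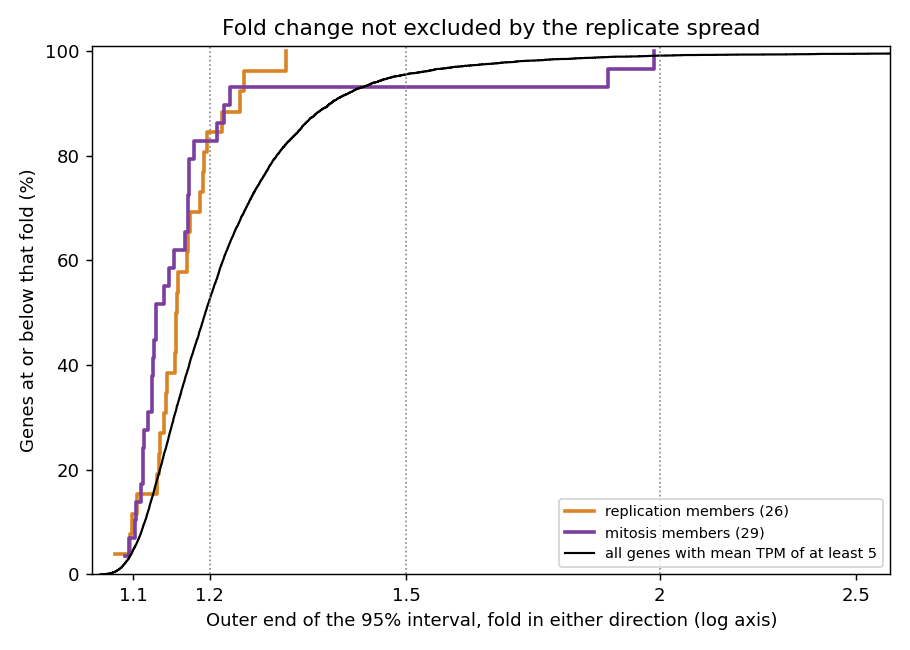
Cumulative share (%) of genes whose 95% interval ends at or below a given fold in either direction (log axis), for 26 replication genes, 29 mitosis genes and 9002 genes averaging 5 TPM or more. Of the mitosis genes 93.1% lie below 1.5-fold, and the last 2 steps are SAPCD2 and UBE2C.

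Many members were lowest or highest in the same library. GNE140 replicate 2 held the lowest of the 6 values in 16 of 26 replication genes and 16 of 29 mitosis genes, while it was the lowest library in 30.1% of all genes tested. Its median deviation from each gene's own mean was -0.090 on the log2 scale over replication genes and -0.077 over mitosis genes, beside -0.047 over all genes. Control replicate 3 held the highest value in 15 of 29 mitosis genes, against 21.4% of all genes, at a median deviation of 0.056.

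Without GNE140 replicate 2, the replication median changed sign to 0.0033, with 13 of 26 genes below 0, and the mitosis median was -0.038, with 19 of 29 below 0. The median of all genes in that fit was 0.026. Summed TPM of the 26 replication genes was 2488 ± 87.6 in GNE140 libraries and 2578 ± 73.5 in control libraries (SD, n = 3 each), with overlap. For the mitosis genes without UBE2C the sum was 3157 ± 59.0 TPM in GNE140 libraries and 3225 ± 70.2 TPM in control libraries, also with overlap.

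**Figure D4:**
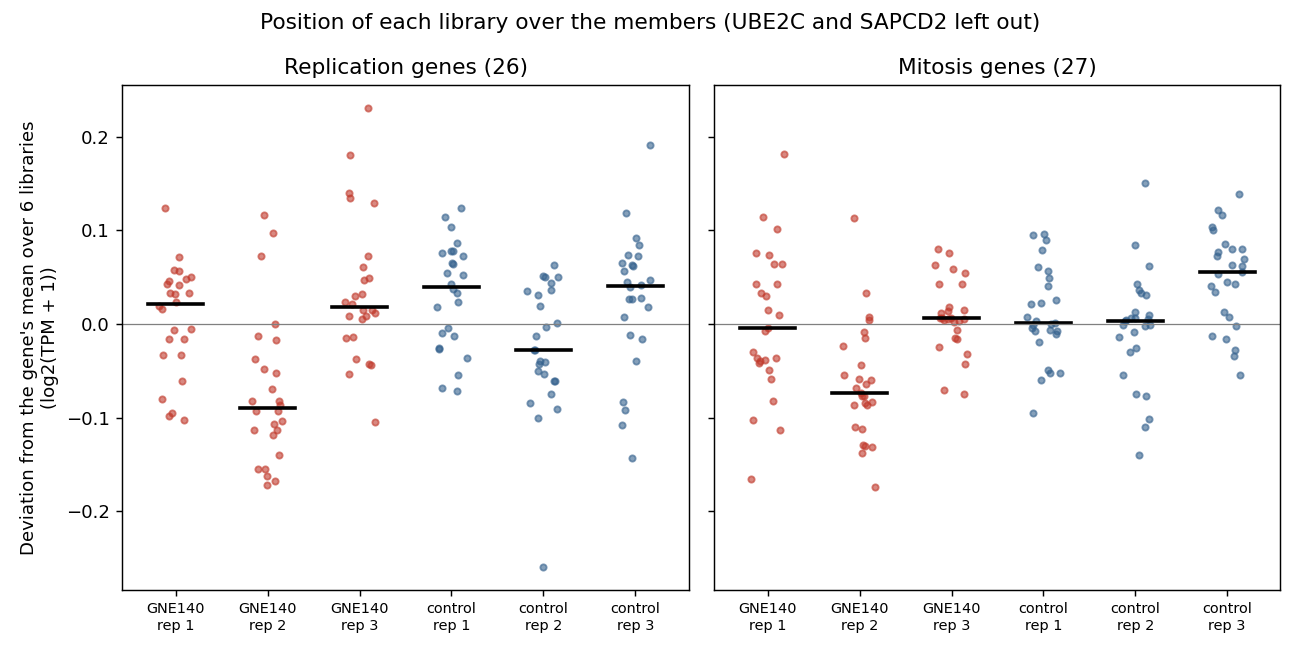
Deviation of each gene from its own mean over the 6 libraries on log2(TPM + 1) (points, with the median as a bar) in 3 GNE140 and 3 control libraries, for replication genes and for mitosis genes without UBE2C and SAPCD2. GNE140 replicate 2 lies lowest in both panels and control replicate 3 highest in the mitosis panel.

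Other genes of the same pathways were read from lists that are not part of the module. Over all 10874 genes tested, 1.31% passed higher and 1.72% lower, and at the unadjusted level 8.75% were higher and 9.16% lower. Of 41 other replication genes tested, 0 passed, with 3 higher and 2 lower at the unadjusted level, a median log2 difference of 0.012 and all 41 intervals within 1.5-fold. ASF1B, on the same list, had 2 rows and was not tested, unlike module members with 2 rows. Its higher row was at 110, 92.4 and 91.1 TPM in GNE140 libraries, against 103, 106 and 118 TPM in control libraries. ORC3, an origin recognition subunit, was closest to the threshold. ORC3 was at 25.6, 26.6 and 27.3 TPM in GNE140 libraries, against 22.6, 21.6 and 22.2 TPM in control libraries, without overlap, at 0.25 (limma adjusted p = 0.0641). SLBP, which binds histone mRNA ends, was at 0.15 (limma adjusted p = 0.126), again without overlap. Of 54 other mitosis genes tested, 0 passed, with 3 higher and 1 lower at the unadjusted level, a median of -0.011 and all 54 intervals within 1.5-fold. NEK2 is a centrosome kinase. NEK2 had 53.7, 47.5 and 52.9 TPM in GNE140 libraries, against 42.3, 43.3 and 44.0 TPM in control libraries, and the groups did not overlap, at 0.24 (limma adjusted p = 0.0723). MAD2L1, a spindle checkpoint protein, was at 0.16 (limma adjusted p = 0.123).

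Among 11 tested G1 cyclins, CDKs and CDK inhibitors, 1 rose and 0 fell, with 3 higher and 1 lower at the unadjusted level and a median of 0.073. The shares over all genes tested were 1.31% and 1.72% for genes that passed, and 8.75% and 9.16% at the unadjusted level. The risen gene was CDKN2C, the p18 inhibitor of CDK4 and CDK6. CDKN2C stood at 104, 112 and 119 TPM in GNE140 libraries, against 88.2, 83.7 and 94.0 TPM in control libraries. The groups did not overlap, and the log2 difference was 0.33 (interval 0.19 to 0.48, limma adjusted p = 0.0299). Its call was lost without GNE140 replicate 2 or 3 (limma adjusted p = 0.0871 and 0.110), without control replicate 1 or 2 (0.1004 and 0.0807), without the filter (0.0672) and without the variance trend (0.0891). CDKN2D, the p19 inhibitor, was at -0.24 (limma adjusted p = 0.114), with no overlap on the lower side. CDKN1A, the p53-induced inhibitor p21, was chosen after its value was seen. CDKN1A was at 14.5, 9.18 and 12.6 TPM in GNE140 libraries, against 10.1, 6.46 and 8.68 TPM in control libraries, with overlap at 0.47 (limma adjusted p = 0.193).

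Of 15 tested RB, E2F and MuvB regulators, 0 passed, with 2 higher and 0 lower at the unadjusted level and a median of 0.029. At that level 8.75% of all genes tested were higher and 9.16% lower. Those closest to the threshold were LIN37, a MuvB subunit, at 0.25 (limma adjusted p = 0.162), and the repressor E2F6 at 0.19 (limma adjusted p = 0.213). E2F4, the most abundant of them, averaged 55.3 TPM in GNE140 libraries and 56.4 TPM in control libraries.

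**Figure D5:**
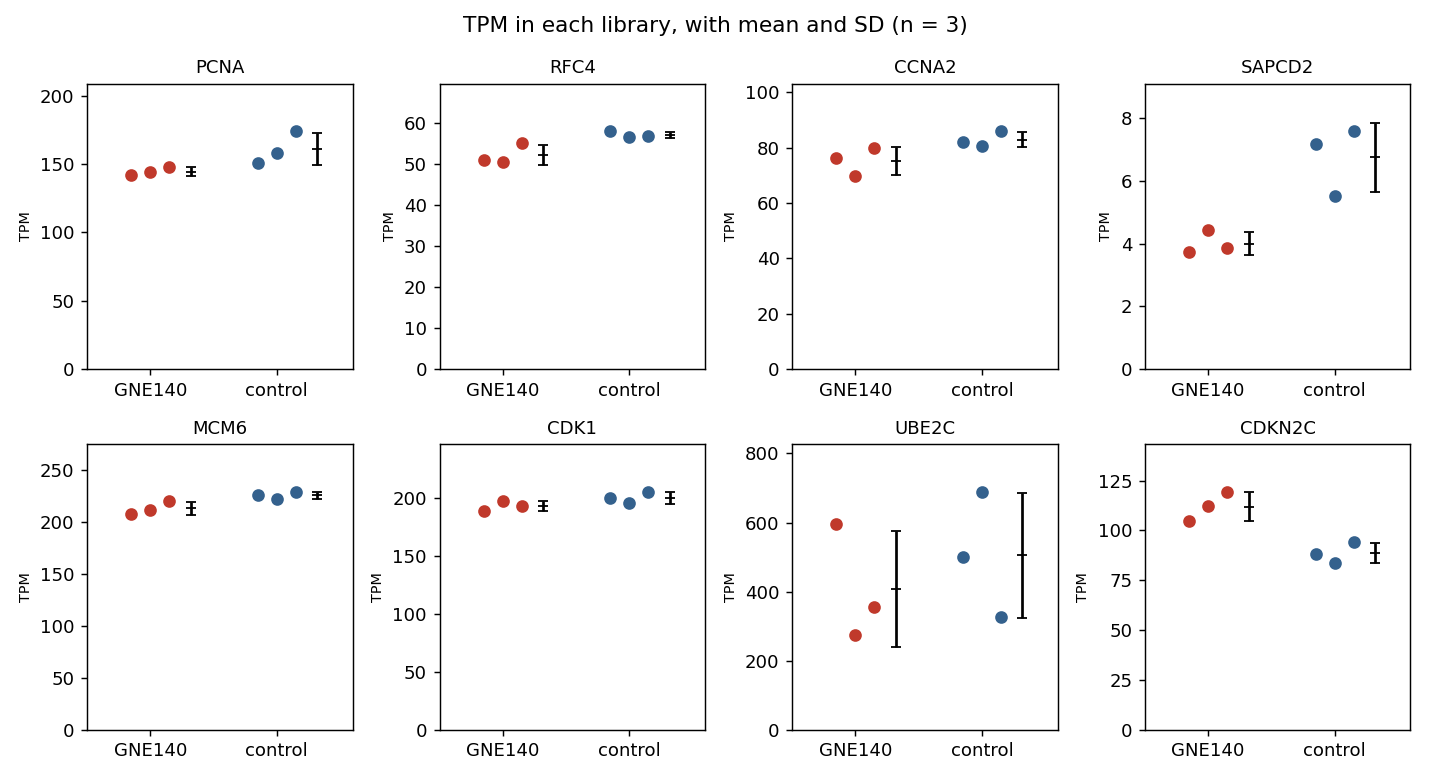
TPM of 8 genes in each GNE140 (red) and control (blue) library, with the mean and SD (n = 3) beside the points. SAPCD2, PCNA, RFC4, CCNA2 and MCM6 lie lower and CDKN2C higher in all GNE140 libraries than in any control library. UBE2C varies widely within both groups, and the axes start at 0.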

How the data were processed

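Values are TPM that the authors deposited, with the same total in every library within rounding. STAR, RSEM and edgeR 3.42.0 are named in the submitters' processing notes without role or order, and no build is named, so coordinates are left out. TPM carries no depth, so no count test, counting interval or floor was possible.

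Rows were taken by symbol. All 59 symbols are in the RefSeq gene table of UU_Cfam_GSD_1.0. Genes averaging 1 TPM or more were fitted together on log2(TPM + 1) with limma 3.58.1 (R 4.3.3), group being the only term, with a variance trend, 2-sided tests, Benjamini-Hochberg adjustment at 0.05 and 95% intervals. The members and lists were chosen with earlier results of these data known. Values per library are given for members with an adjusted or unadjusted p under 0.05, for the most abundant and the most different member of each of 13 role groups, for the narrowest and widest intervals and for SAPCD2. From each list of other pathway genes, called members and the 2 with the smallest p are named. ASF1B is named because its 2 rows left it untested. CDC6, CDT1, PRIM1, CCNE1, CDKN1A, FLT1, ERG, COL1A1, ACTA2, CD68 and the most abundant gene of a marker or regulator list were added after their values were seen. Alternatives changed the pseudocount, filter, scaling and variance model, added a replicate block or left out a library. Promoter motifs were planned and not run, since no sequences were used here. Figures were drawn with matplotlib 3.10.9.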

Additional observations from a re-analysis of the deposited data

How the results depend on the processing

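With 0 replication genes called and 53 members within 1.5-fold, these counts held under each of 15 alternatives, except 54 within 1.5-fold at a pseudocount of 5. The number within 1.2-fold did not hold. It was 22 of 26 replication and 24 of 29 mitosis genes in the main fit. Without GNE140 replicate 3 it was 16 and 19, and at a pseudocount of 5 it was 23 and 27. The count of 1 mitosis gene called became 0 without the filter on low values, without the variance trend and with the replicate block. It ranged from 0 to 1 with a library left out. SAPCD2 stayed at -0.63 in those 3 fits and ranged from -0.75 to -0.55 with a library left out. At a pseudocount of 0.1 it was -0.74 and at 5 it was -0.38. Of all genes tested, 329 passed, 43.2% of them higher. The count was 168 without the filter, 159 without the trend and 163 with the block, 438 under median-of-ratios, 415 under quantile and 375 under 20-gene scaling, and 74 to 185 with a library left out. The share of calls that were higher was 35.2% under median-of-ratios, 57.9% without the trend and 33.0% to 55.4% with a library left out. The replication median ran from -0.062 to 0.0033 with a library left out, and the mitosis median from -0.064 to -0.032. Of 55 members, signs turned under quantile normalization for MCM4, CHAF1A, AURKA, NUSAP1, GINS1 (0.0027) and TOP2A (0.034), for CHAF1A and TOP2A (0.010) with the 20 most abundant genes removed, and for TYMS under median-of-ratios scaling. With a library left out GINS1 ran from -0.061 to 0.010, PLK1 from -0.030 to 0.065, TOP2A from -0.040 to 0.041 and TPX2 from -0.012 to 0.049. MCM4, CCNE1, CHAF1A, AURKA, AURKB, NUSAP1, POLE, POLA1, TYMS and KIF11 also changed sign in at least 1 of those fits, as far as -0.037 for POLE and 0.042 for NUSAP1. Among other pathway genes, NEK2 passed under median-of-ratios (limma adjusted p = 0.0370), quantile (0.0317) and 20-gene scaling (0.0457), and ORC3 under the last (0.0481). The cause of these changes was not tested. Libraries with the same replicate number did not deviate together (r across genes of 0.036, 0.0093 and -0.098), so the numbers are not taken as pairs. Depth is unknown, so the counting error of genes at low TPM, SAPCD2 among them, could not be given.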
